A study of Mus musculus with 32 samples.

Results

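DSP2 segments are the IGHD2 family of mouse heavy chain diversity (D) genes. Their joins were taken as the clonotypes whose first D hit in the deposited series table was an IGHD2 gene, and 403 of 871 clonotypes met this rule. A further 206 clonotypes carried DFL16 (IGHD1), 156 carried another D family and 106 had no D hit. A clonotype is a CDR3 nucleotide sequence with its V and J gene in 1 mouse and 1 amplicon. The CDR3 is the stretch from the conserved cysteine of V to the conserved tryptophan of J.

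The rearrangements came from genomic DNA of pro-B cells sorted as B220+ CD43+ IgM- CD25- from the bone marrow of 8-week-old, untreated Setd2 knockout (KO) and control (WT) mice. One PCR primer matched a VH family (Vh558, Vh7183 or Vhq52) and the other matched JH4. There were 32 samples from 6 KO and 5 WT mice: Vh558 from 5 KO and 4 WT mice, Vh7183 from 5 KO and 5 WT mice, and Vhq52 from 4 KO and 5 WT mice. The labels do not state which Cre or allele made the knockout, and Setd2 itself was not measured by these amplicons.

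During heavy chain assembly a D segment is first joined to a JH segment, and a VH segment is then joined to the DJ unit. Exonucleases remove bases from the segment ends, terminal transferase adds non-templated bases, and hairpin opening can leave short palindromic (P) bases next to an untrimmed end. D segments can be read in any of the 3 frames, and in mice DSP2 joins are known for favouring a frame rich in tyrosine. SETD2 is the methyltransferase that trimethylates lysine 36 of histone H3.

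The germline letters of the 5 DSP2 genes found here are shown because every later result on ties, frames and trimming rests on them. They were rebuilt from the aligned stretches of the clonotypes themselves. Only alignments without changes were used, so the 0 disagreeing bases were fixed in advance and are no check of the letters. Each runs 5′ to 3′, and capitals mark the 7 of 17 positions at which the genes differ.
IGHD2-3: TctaTGatGGtTacTac
IGHD2-4: TctaCTatGAtTacGac
IGHD2-6: CctaCTatAGtAacTac
IGHD2-7: TctaCTatGGtTacGac
IGHD2-8: TctaCTatGGtAacTac

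IGHD2-4 and IGHD2-7 differed at 1 base, IGHD2-7 and IGHD2-8 at 2, and IGHD2-6 and IGHD2-8 at 2. The most distant pairs, IGHD2-3 with IGHD2-6 and IGHD2-4 with IGHD2-6, differed at 5. In the RefSeq gene order (GRCm38.p6, used for names and neighbours only) IGHD2-8 lies nearest to the JH side, followed by IGHD2-7, IGHD2-6, IGHD2-4 and IGHD2-3. IGHD2-5, which that order places between IGHD2-6 and IGHD2-4, was the first hit of 0 clonotypes. Its letters could therefore not be rebuilt, and whether it was used was not tested.

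Read depth was shallow and uneven. The samples held 387 to 9276 clone reads and 5 to 188 table entries each. The labels name no molecular identifiers, so intervals on counts cover counting error only. Near-identical CDR3s recurred within a mouse. The largest such set with DSP2 came from KO mouse 1423 in Vh7183, where 9 clonotypes with IGHD2-6 and IGHJ3 were linked by at most 2 differing bases. WT mouse 1418 in Vh558 held 3 sets of 8, all with IGHD2-4 and IGHJ4. Merging such sets left 314 DSP2 clonotypes of 615 with a D hit, and values after merging are given beside the counts and tests that it bears on most. In addition, 10 DSP2 CDR3 sequences occurred in more than 1 mouse, 5 of them in Vh7183 and 5 in Vhq52.

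IGHD2-4 was the most frequent gene of the family when all amplicons and mice were pooled. It was the first hit of 131 of 403 DSP2 clonotypes (32.5%, 95% Wilson interval 28.1 to 37.2). IGHD2-6 followed with 93 (23.1%, 19.2 to 27.4). IGHD2-3 had 69 (17.1%, 13.8 to 21.1), IGHD2-7 had 65 (16.1%, 12.9 to 20.0) and IGHD2-8 had 45 (11.2%, 8.45 to 14.6). IGHD2-4 and IGHD2-6 were seen in 10 mice each and the other genes in 9 each. After merging of near-identical CDR3s IGHD2-4 held 91 of 314 (29.0%) and IGHD2-6 held 67 (21.3%), so the order of these leading genes was the same. The pooled order did not hold in each part. In KO mice IGHD2-6 had 31 of 100 and IGHD2-4 had 26, but 18 and 22 of 74 after merging. In Vh7183 IGHD2-6 had 23 of 68 and IGHD2-4 had 15, and each had 15 of 60 after merging. Vh558 of WT mice gave 79 of the 131 IGHD2-4 clonotypes.

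Counted by reads the order was different. IGHD2-6 held 29.4% of the DSP2 reads, IGHD2-3 held 24.8% and IGHD2-4 held 24.4%. IGHD2-8 held 13.3% and IGHD2-7 held 8.07%. Single clones held up to 2900 reads.

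The deposited table names a single D gene per clonotype, so equal scores were looked for by scoring each aligned stretch against every rebuilt reference. The deposited score was recovered for 403 of 403 DSP2 clonotypes. For alignments without changes this was largely fixed in advance, because the references were rebuilt from these same stretches. The other 41 alignments held changes from the germline letters. The named gene was the only best match in 351 of the 403 clonotypes (87.1%). The remaining 52 were short: those tied within the family had a median of 6 aligned bases, against 12 in those with a single best gene.

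Ties fell unevenly over the family. All 69 IGHD2-3 calls and all 45 IGHD2-8 calls were unique among the rebuilt genes, as were 128 of 131 IGHD2-4 calls and 80 of 93 IGHD2-6 calls. IGHD2-5 had no rebuilt reference, so a tie with it could not be seen. Matches of another gene outside the aligned stretch were not scored either, so the counts of unique calls are upper values. Of the 65 IGHD2-7 calls only 29 (44.6%) were unique. IGHD2-7 and IGHD2-8 tied in 22 clonotypes, of which 19 had been named IGHD2-7 and 0 IGHD2-8. Sharing each tied clonotype equally between its best genes lowered IGHD2-7 to 11.3% of the family and raised IGHD2-8 to 13.9%, so the order of these genes depended on how ties were resolved. A tie with another family occurred in 5 clonotypes, all named IGHD2-6.

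KO and WT mice were compared for the share of DSP2 among clonotypes with a D hit. In Vh558 the share was 46.7%, 56.3%, 56.7%, 50% and 0% in KO mice 1421, 1423, 1464, 1500 and 1534, against 62.5%, 66.7%, 16.7% and 44.9% in WT mice 1418, 1432, 1485 and 1536. KO mouse 1534 had only 4 clonotypes with a D hit, and 0 of 4 has a Wilson interval reaching 49.0%. The groups overlapped, with means of 41.9 ± 23.8% in KO mice (SD, n = 5) and 47.7 ± 22.7% in WT mice (SD, n = 4).

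In Vh7183 the share was 80%, 66.7%, 41.7%, 50% and 33.3% in KO mice 1421, 1423, 1464, 1487 and 1500, against 43.8%, 50%, 48.4%, 22.2% and 31.3% in WT mice 1418, 1432, 1484, 1485 and 1536. In Vhq52 it was 57.1%, 37.5%, 50% and 50% in KO mice 1421, 1464, 1487 and 1500, against 25%, 33.3%, 78.6%, 80% and 68.2% in WT mice 1418, 1432, 1484, 1485 and 1536. The KO and WT values overlapped in both amplicons. WT mice spanned a wider range than KO mice in Vhq52.

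**Figure D1:**
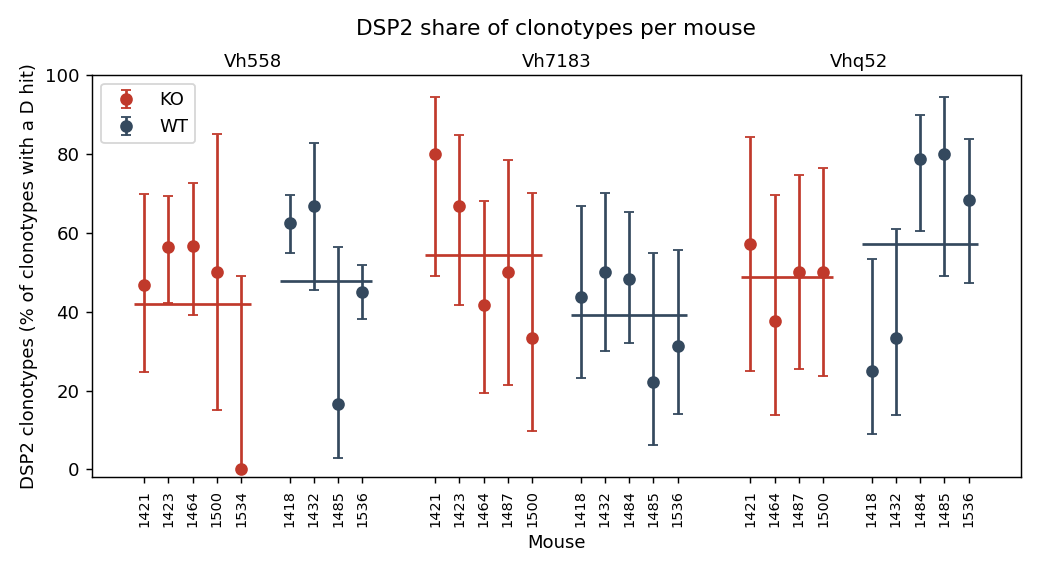
DSP2 clonotypes as a percentage of clonotypes with a D hit (y axis) in each mouse (x axis), KO left of WT within each amplicon. Points are mice, bars are 95% Wilson intervals and horizontal lines are group means. The groups overlap in each amplicon, and KO mouse 1534 stands at 0%.

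The KO minus WT difference was -5.76 percentage points in Vh558 (95% interval -42.3 to 31.2; exact permutation p = 0.667), 15.2 in Vh7183 (-8.57 to 38.3; exact p = 0.190) and -8.36 in Vhq52 (-39.7 to 31.1; exact p = 0.556). Over all amplicons, with values centred per amplicon and averaged per mouse, it was -4.15 points (-28.9 to 15.8; exact p = 0.792, n = 6 KO and 5 WT). None of the adjusted p-values over the 40 KO and WT tests of joins was below 0.564. Leaving out KO mouse 1534 turned the difference over all amplicons to 3.83 points and that in Vh558 to 4.72 points. Leaving out WT mouse 1432 turned the Vh558 difference to 0.57 points. Vh558 was sequenced in 3 batches. Within them the difference was -5.99 points (3 KO and 3 WT mice; exact permutation p = 0.7), -10.5 (2 KO and 1 WT) and -24.7 (2 KO and 2 WT; exact permutation p = 0.333). The last of these batches holds repeat libraries of mice from the other batches, so these are not separate comparisons. The share of reads gave -8.02 points over all amplicons (-37.4 to 20.7; exact permutation p = 0.563), and -0.15 without KO mouse 1534. In Vh7183 the difference in clonotype share was 8.79 points without KO mouse 1421, and in Vhq52 it lay between -16.4 (without WT mouse 1418) and -2.61 (without WT mouse 1485).

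By single gene the share of clonotypes with a D hit was tested over all amplicons for the 11 D genes with at least 10 clonotypes. Of these, 9.09% passed an adjusted exact p of 0.05, and 0 of the 5 DSP2 genes did. The gene that passed was IGHD3-1, named after its values were seen. At an unadjusted exact p under 0.05 the count over all genes was also 1, which again was no DSP2 gene. IGHD2-4 averaged 11.2 ± 7.09% in KO mice (SD, n = 6) and 14.4 ± 2.34% in WT mice (SD, n = 5), a centred difference of -3.84 points (-13.0 to 4.32; exact permutation p = 0.398). IGHD2-6 averaged 13.4 ± 14.3% in KO mice and 12.5 ± 5.94% in WT mice, a centred difference of 1.37 points (-11.2 to 17.2; exact p = 0.881). Merging near-identical CDR3s turned the IGHD2-6 difference to -2.43 points. The intervals leave room for differences of several points in either direction for each DSP2 gene.

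The amplicons did not differ in DSP2 share beyond the spread between mice. Within mice, Vh558 minus Vh7183 was 3.93 points (exact sign-flip p = 0.578, n = 8), Vh558 minus Vhq52 was -1.02 points (exact p = 0.938, n = 7) and Vh7183 minus Vhq52 was -8.79 points (exact p = 0.398, n = 9).

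Over the 28 mouse and amplicon values, the D genes whose share ran most like that of the whole family were IGHD2-4 and IGHD2-7 (Pearson r = 0.53 each), both members of the family. IGHD1-1, the DFL16 gene, ran opposite (r = -0.77). These values share a denominator and are given as a description.

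The stretch matched to DSP2 in a join averaged 11.1 ± 3.85 bases over the 403 clonotypes (SD) and ranged from 5 to 22. This length can include P-type bases past the segment ends, and always does above the germline length of 17. IGHD2-4 retained the most, 12.2 bases on average, and IGHD2-7 the least, 9.74. This order depended on ties. The 36 tied IGHD2-7 calls had a median of 6 aligned bases and the 29 unique ones 13, against 12 in unique IGHD2-4 calls. In 383 clonotypes the deposited alignment lay in the germline segment. In the other 20 (5 KO and 15 WT) it lay wholly or mostly in the reverse-complement flank of the reference, with 5 to 8 bases. For 8 of these, all IGHD2-6, the same letters also occur inside the segment. Trimming and frame were read from the 383 alone, which kept 10.7 germline bases on average.

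The 5′ side lost more than the 3′ side. On average 4.39 bases were removed 5′ and 1.94 bases 3′. The 5′ end was intact in 63 of 383 joins (16.4%) and the 3′ end in 193 (50.4%), and both ends were intact in 22. IGHD2-4 had the shortest 3′ loss, 1.18 bases, and IGHD2-7 the longest, 3 bases, with its short tied calls included. Of the 193 intact 3′ ends, 157 (81.3%) ran on into bases complementary to the end, as P bases would. The extension was 1 base in 121 and 2 bases in 35. Of the 63 intact 5′ ends, 41 (65.1%) were extended. A non-templated base can match such a position by chance, so these counts are upper values for P bases.

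**Figure D2:**
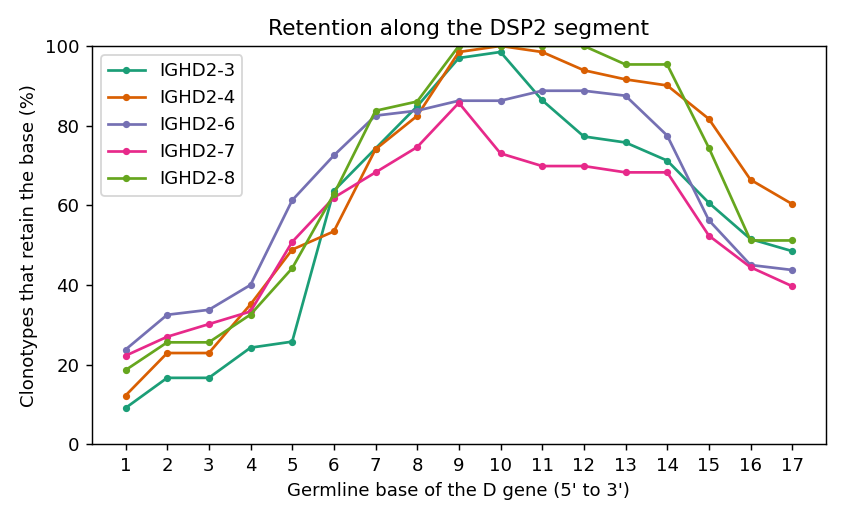
Percentage of clonotypes (y axis) that retain each germline base (x axis, base 1 at the 5′ end) for each DSP2 gene, over the 383 clonotypes aligned in the segment. Over the family 16.4% keep base 1, 93.7% keep base 9 and 50.4% keep base 17.

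Retention peaked in the middle of the segment, where base 9 was kept in 93.7% of joins. In IGHD2-3 retention stepped up between base 5, kept in 25.8% of joins, and base 6, kept in 63.6%. The same bases were kept in 44.2% and 62.8% in IGHD2-8, in 61.3% and 72.5% in IGHD2-6, in 50.8% and 61.9% in IGHD2-7 and in 48.9% and 53.4% in IGHD2-4. Bases 5 and 6 are positions at which IGHD2-3 differs from the other 4 genes.

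Retained length in KO and WT mice was compared over mice with at least 3 DSP2 clonotypes. In Vh7183 it averaged 10.6, 13.1, 10.8 and 11.8 bases in KO mice 1421, 1423, 1464 and 1487, against 10.4, 10.6, 9.93 and 10 in WT mice 1418, 1432, 1484 and 1536. The KO values lay above all WT values, with a difference of 1.33 bases (95% interval 0.025 to 3.17; exact permutation p = 0.0286, the smallest these 4 and 4 mice allow; adjusted p = 0.564). When near-identical CDR3s were merged, KO mouse 1423 no longer had enough DSP2 clonotypes, and the difference was 0.82 bases (exact p = 0.0571). In Vhq52 the difference had the opposite sign, with 8.00 ± 1.56 bases in KO mice (SD, n = 4) and 9.74 ± 1.41 in WT mice (SD, n = 5), or -1.74 bases (-4.37 to 1; exact permutation p = 0.127). Over all amplicons it was -0.28 bases (-2.03 to 1.15; exact permutation p = 0.714).

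For the other junction measures, no difference between KO and WT mice passed an exact p of 0.05 over all amplicons with 5 KO and 5 WT mice. The KO minus WT difference was 0.84 bases for 5′ trimming (-0.20 to 1.94; exact permutation p = 0.0952) and -0.67 bases for 3′ trimming (-1.56 to 0.21; exact p = 0.111). It was 0.75 inserted bases between V and D (-0.31 to 2.03; exact p = 0.175) and -0.38 between D and J (-1.75 to 1.60; exact p = 0.706). CDR3 length differed by -0.08 bases (-3.44 to 3.62; exact p = 0.960). Leaving out 1 mouse brought the unadjusted exact permutation p under 0.05 for 4 of these measures. Without KO mouse 1500 the D-J difference was -1.22 bases (exact p = 0.0238), and without KO mouse 1421 the V-D difference was 1.01 bases (exact p = 0.0397) and the 3′ difference -0.90 (exact p = 0.0476). Without WT mouse 1485 the 5′ difference was 1.04 bases (exact p = 0.0476).

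DSP2 joins were set against DFL16 joins of the same mice, 10 mice with at least 3 of each. DFL16 is a single longer segment, IGHD1-1, with 23 germline bases. Retained D length averaged 10.6 ± 1.22 bases in DSP2 joins and 13.7 ± 1.17 in DFL16 joins (SD, n = 10), a difference of -3.16 bases (-4.56 to -1.67; adjusted exact sign-flip p = 0.0264), and DSP2 was shorter in 9 of 10 mice. The exception was WT mouse 1418, with 11.7 bases in DSP2 and 11.5 in DFL16 joins.

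Less was removed from the 3′ end of DSP2. It lost 2.18 ± 0.72 bases, against 4.92 ± 1.18 in DFL16 (SD, n = 10), a difference of -2.74 bases (-3.95 to -1.47; adjusted exact sign-flip p = 0.0264) in the same direction in 9 of 10 mice. WT mouse 1432 was the exception, with 3.30 bases in DSP2 and 2.91 in DFL16 joins. At the 5′ end the difference was 0.33 bases (-0.57 to 1.21; adjusted exact p = 0.406). DSP2 CDR3s were shorter, at 44.5 ± 2.50 against 47.8 ± 2.41 bases, by -3.27 bases (-5.53 to -1.02; adjusted exact p = 0.0410), in 9 of 10 mice. Inserted D-J bases differed by 0.79 (0.092 to 1.49; adjusted exact p = 0.0791), which did not pass. On merged CDR3s the differences that had passed were -3.22 bases for D length, -2.61 for 3′ trimming and -3.57 for CDR3 length.

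**Figure D3:**
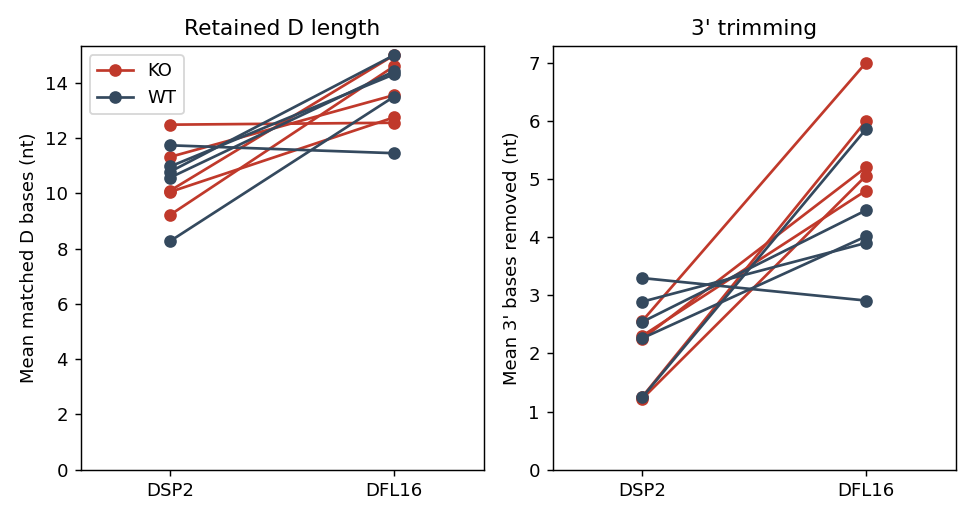
Mean matched D bases (left) and mean 3′ bases removed (right) in DSP2 and DFL16 joins, in nucleotides. Each line is 1 mouse, KO or WT by colour. DSP2 is the lower value in 9 of 10 mice in each panel.

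The reading frame is named here by the D base that starts a codon. Read from base 3, the germline segments encode YDGYY (IGHD2-3), YYDYD (IGHD2-4), YYSNY (IGHD2-6), YYGYD (IGHD2-7) and YYGNY (IGHD2-8), all rich in tyrosine. Read from base 1 they encode SMMVT, STMIT, PTIVT, STMVT and STMVT in the same gene order. Read from base 2, IGHD2-3, IGHD2-4 and IGHD2-8 hold 1 stop codon each, IGHD2-6 holds 2 and IGHD2-7 holds 0.

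The tyrosine-rich frame held 311 of 383 joins (81.2%, Wilson interval 77.0 to 84.8). Base 2 held 48 (12.5%) and base 1 held 24 (6.27%). Merging near-identical CDR3s left 231 of 296 joins in the tyrosine-rich frame (78.0%). DFL16 joins also used base 3 the most, in 130 of 200 (65%). Within mice the most used frame held 74.9 ± 19.1% of DSP2 and 58.6 ± 19.1% of DFL16 joins (SD, n = 10). The difference of 16.3 points did not pass (95% interval -4.78 to 38.1, adjusted exact sign-flip p = 0.188), so this preference was not shown to be particular to DSP2. Frame use was uneven over the genes. The tyrosine-rich frame was used by 76 of 80 IGHD2-6 joins (95%), 117 of 131 IGHD2-4 joins (89.3%) and 38 of 43 IGHD2-8 joins (88.4%). It was used by 46 of 66 IGHD2-3 joins (69.7%) and 34 of 63 IGHD2-7 joins (54.0%).

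Base 2 was used by 23 of 63 IGHD2-7 joins (36.5%), the gene with no stop in that frame. Among the 29 IGHD2-7 joins with a single best gene it was 9 (31.0%), and among in-frame IGHD2-7 joins of the clone lists with at least 10 germline bases it was 7 of 31 (22.6%). It was also used by 17 of 66 IGHD2-3 joins (25.8%), by 5 of 131 IGHD2-4 joins, by 3 of 80 IGHD2-6 joins and by 0 of 43 IGHD2-8 joins. The series table holds productive clonotypes only, and 0 of the base 2 joins kept a complete germline stop. The 17 IGHD2-3 joins in base 2 had lost at least 5 bases at the 5′ end, 6.82 on average. The IGHD2-3 joins in the tyrosine-rich frame had lost 4.24. A productive base 2 join cannot keep the IGHD2-3 stop, so this contrast is at least partly fixed by that rule. CDR3s of the tyrosine-rich frame held 3.48 ± 1.25 tyrosines, against 2.04 ± 1.11 in base 2 and 1.75 ± 1.22 in base 1 (SD over clonotypes).

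**Figure D4:**
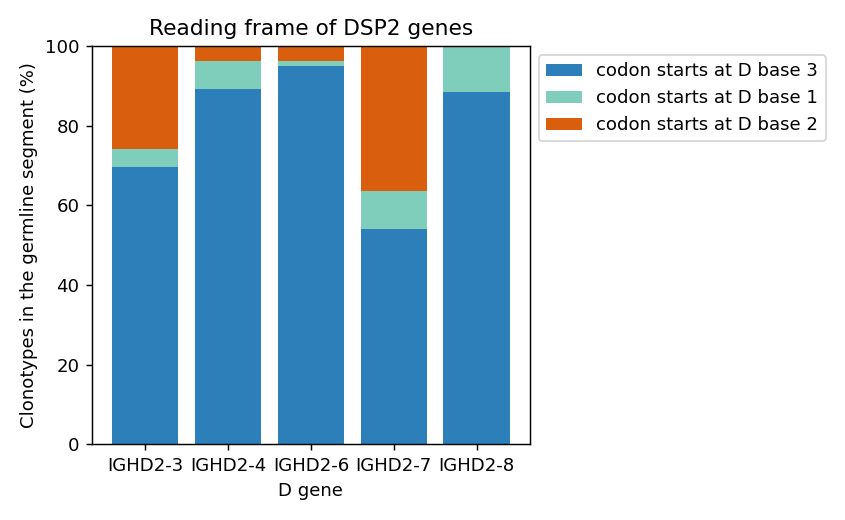
Percentage of clonotypes aligned in the germline segment (y axis) that read each DSP2 gene (x axis) from D base 3, 1 or 2. IGHD2-7 and IGHD2-3 have the largest base 2 parts, 36.5% and 25.8%, and IGHD2-8 has none.

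Frame use did not differ between KO and WT mice beyond their spread. The tyrosine-rich frame held 94.0 ± 7.39% in KO mice and 83.4 ± 7.53% in WT mice in Vh558 (SD, n = 3 each). It held 63.1 ± 27.8% in KO mice (n = 4) and 77.6 ± 17.7% in WT mice (n = 3) in Vh7183. In Vhq52 it held 52.1 ± 21.9% in KO mice (n = 4) and 52.6 ± 15.9% in WT mice (n = 5). Over all amplicons the difference was 0.41 points (-25.7 to 22.4; exact permutation p = 0.968).

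The same frames were compared in the clone lists of the single samples, which also hold non-productive joins. An exact stretch of at least 10 DSP2 germline bases was found in 599 of their clonotypes, counted once per mouse and amplicon. This comparison was added after the data had been seen. Among out-of-frame joins the frame of D relative to V was spread: base 1 had 105 of 248 (42.3%), base 3 had 74 (29.8%) and base 2 had 69 (27.8%). Among in-frame joins without a stop, base 3 had 260 of 296 (87.8%), base 1 had 21 (7.09%) and base 2 had 15 (5.07%). In-frame joins with a stop were in base 2 in 49 of 55.

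Within mice the share of the tyrosine-rich frame was 78.5 ± 22.95% in productive joins and 27.6 ± 17.1% in out-of-frame joins (SD, n = 9). The difference was 50.9 points (31.5 to 71.1; exact sign-flip p = 0.00391, the smallest that 9 mice allow) and was positive in 9 of 9 mice. Productive joins exclude those with a stop, of which 49 of 55 were in base 2. Their removal raises the productive share of the tyrosine-rich frame, so the difference is at least partly fixed by this rule. How large that part is was not tested. Base 1, like the tyrosine-rich frame, codes for an open frame in all 5 genes. Its share was 16.0 ± 25.9% in productive and 35.4 ± 20.9% in out-of-frame joins, a difference of -19.4 points (-47.2 to 14.2; exact sign-flip p = 0.207) with the same sign in 7 of 9 mice. KO mouse 1487 went the other way, with 77.8% of 9 productive joins in base 1 and 0% of 7 out-of-frame joins.

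The V partners of DSP2 in Vh558 were led by IGHV1-26 (51 of 265 DSP2 clonotypes) and IGHV1-55 (38), followed by IGHV1-72 (23), IGHV1-18 (17), IGHV1-39 (15), IGHV1-69 (14), IGHV1-19 (13) and IGHV1-53 (12). WT mice gave 212 of the 265 Vh558 clonotypes and 48 of the 51 with IGHV1-26. Merging near-identical CDR3s left 3 KO and 28 WT clonotypes with IGHV1-26 of 188. In Vh7183, IGHV5-17 had 16 of 68, IGHV5-4 had 14, IGHV5-6 had 9, IGHV5-12 had 7 and IGHV5-2, the V gene known as VH81X, had 6. Of the 16 with IGHV5-17, 12 came from KO mice, and these include the 9 near-identical clonotypes of KO mouse 1423. Merging left 4 from KO and 4 from WT mice. In Vhq52, IGHV2-2 had 36 of 70, IGHV2-3 had 12 and IGHV2-9-1 had 10.

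The J partners were mostly IGHJ4, the nearest J gene to the primer. It took 304 of 403 DSP2 joins (75.4%). IGHJ3 took 64 (15.9%), IGHJ2 took 28 (6.95%) and IGHJ1 took 7 (1.74%). Products were amplified to a JH4 primer and cut from a gel at 1 size, and the part of either in these shares was not tested.

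In Vh7183 the IGHJ4 share of DSP2 joins was 12.5%, 10%, 20% and 25% in KO mice 1421, 1423, 1464 and 1487, against 42.9%, 70%, 73.3% and 60% in WT mice 1418, 1432, 1484 and 1536. The groups did not overlap, with a difference of -44.7 points (95% interval -63.3 to -17.9; exact permutation p = 0.0286, the smallest these mice allow; adjusted p = 0.564). Merging near-identical CDR3s gave -42.4 points with 3 KO and 4 WT mice (exact p = 0.0571). In Vh558 the share averaged 73.5 ± 8.04% in KO mice and 90.3 ± 10.5% in WT mice (SD, n = 3 each; exact permutation p = 0.2, where 0.1 is the smallest possible). In Vhq52 it averaged 39.2 ± 28.3% in KO mice (n = 4) and 62.5 ± 27.7% in WT mice (n = 5; exact p = 0.262).

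Over all amplicons the KO minus WT difference in the IGHJ4 share was -25.2 points (-46.4 to -0.19; exact permutation p = 0.0476), and it did not pass after adjustment (adjusted p = 0.564). On merged CDR3s it was -24.5 points (exact p = 0.0397). It lay between -34.4 and -20.5 points when each mouse was left out in turn, with an exact p under 0.05 in 2 of 10 such sets.

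IGHJ3 was compared between DSP2 joins and joins of all other D families of the same mouse, a test added after the data had been seen. IGHJ3 took 50%, 44.4%, 37.8%, 28% and 21.1% of DSP2 joins in KO mice 1487, 1500, 1423, 1464 and 1421, against 0%, 9.09%, 7.69%, 8% and 23.1% of their other joins. In WT mice 1485, 1484, 1432, 1418 and 1536 it took 27.3%, 24.3%, 17.9%, 7.83% and 3.57% of DSP2 joins, against 14.3%, 18.2%, 20%, 3.70% and 1.53% of the other joins. The share was higher in DSP2 joins in 8 of 10 mice.

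The DSP2 minus other difference for IGHJ3 was 15.7 points (2.72 to 28.5; exact sign-flip p = 0.0137; 0.0547 adjusted over the 4 J genes). By amplicon, IGHJ3 took 17 of 29 DSP2 joins against 1 of 22 other joins in Vh7183 KO mice, and 7 of 39 against 1 of 53 in Vh7183 WT mice. In Vh558 it took 10 of 53 against 6 of 48 in KO mice, and 10 of 212 against 6 of 188 in WT mice. In Vhq52 it took 7 of 18 against 4 of 19 in KO mice, whereas in WT mice the DSP2 share was the lower, 13 of 52 against 9 of 32. With near-identical CDR3s merged it was 15.1 points (3.18 to 29.5; exact p = 0.00977; adjusted p = 0.0391), higher in 9 of 10 mice. For IGHJ4 the DSP2 minus other difference was -7.45 points (-21.7 to 7.14; exact p = 0.260), for IGHJ2 -6.51 (exact p = 0.162) and for IGHJ1 -1.70 (exact p = 0.156). The KO minus WT difference of the IGHJ4 contrast was -15.9 points (-43.0 to 10.8; exact permutation p = 0.214), so the KO and WT difference in IGHJ4 was not shown to be particular to DSP2.

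**Figure D5:**
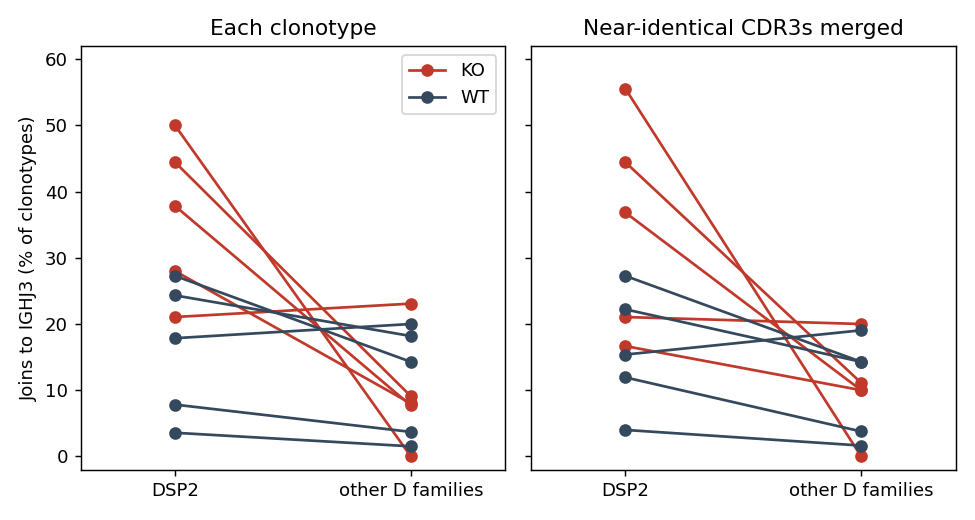
Percentage of clonotypes joined to IGHJ3 (y axis) in DSP2 joins and in joins of other D families, counting each clonotype (left) or merging near-identical CDR3s (right). Each line is 1 mouse, KO or WT by colour. DSP2 is the higher value in 8 of 10 mice on the left and in 9 of 10 on the right.

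Within mice, the IGHJ4 share of DSP2 joins was higher in Vh558 than in Vh7183, at 81.9 ± 12.4% and 35.9 ± 25.5% (SD, n = 6). The difference of 46.0 points had the same sign in 6 of 6 mice (8.57 to 62.4; exact sign-flip p = 0.0313, the smallest that 6 mice allow; adjusted p = 0.188 over 12 tests). DSP2 CDR3s were 2.53 bases longer in Vh558 than in Vh7183 in 6 of 6 mice (0.043 to 5.36; exact p = 0.0313; adjusted p = 0.188). Neither passed after adjustment, and amplicon and sequencing batch cannot be told apart in either.

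A DSP2 clonotype had a median of 12 reads, from 2 to 2900, and DFL16 had a median of 13. On the log2 scale DSP2 minus DFL16 was -0.59 reads per clonotype within mice (-1.34 to 0.15; exact sign-flip p = 0.105, n = 10).

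Single DSP2 clones held more than 25% of the productive reads of a mouse in an amplicon in 12 cases, 10 of them in KO mice. Over all clonotypes there were 32 such cases, 23 in KO and 9 in WT mice, and DFL16 had 4 in KO and 4 in WT mice. Because totals per mouse were small, such shares describe these libraries. The DSP2 clone with the most reads in each amplicon and genotype is given as its CDR3, 5′ to 3′, to show what the most-read DSP2 joins look like. Together these 6 hold 20.6% of the DSP2 reads. Capitals mark the stretch aligned to the D gene. Such a stretch can hold a base that differs from the germline, as in the Vh558 clone of KO mouse 1464.
Vh558 KO mouse 1464, IGHV1-55, IGHD2-3, IGHJ4: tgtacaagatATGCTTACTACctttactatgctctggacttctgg
Vh558 WT mouse 1432, IGHV1-55, IGHD2-8, IGHJ4: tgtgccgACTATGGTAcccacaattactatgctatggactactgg
Vh7183 KO mouse 1487, IGHV5-12, IGHD2-6, IGHJ4: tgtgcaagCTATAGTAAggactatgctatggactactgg
Vh7183 WT mouse 1485, IGHV5-2, IGHD2-6, IGHJ4: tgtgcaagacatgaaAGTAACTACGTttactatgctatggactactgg
Vhq52 KO mouse 1421, IGHV2-3, IGHD2-6, IGHJ4: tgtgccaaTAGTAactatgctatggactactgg
Vhq52 WT mouse 1432, IGHV2-9-1, IGHD2-3, IGHJ4: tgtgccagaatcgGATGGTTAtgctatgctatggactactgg

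The Vhq52 clone of KO mouse 1421 had 2869 of 4180 reads (68.6%, Wilson interval 67.2 to 70.0). Its D stretch had only 5 bases and was aligned to the flank of the reference, although the same letters also occur in the IGHD2-6 segment. The Vh7183 clone of KO mouse 1487 had 1586 of 3045 reads (52.1%, 50.3 to 53.9), and the Vh558 clone of KO mouse 1464 had 2749 of 8730 (31.5%, 30.5 to 32.5). Among WT mice the Vhq52 clone of mouse 1432 had 2900 of 6807 reads (42.6%, 41.4 to 43.8). The same CDR3 had 18 reads in KO mouse 1464. The remaining WT clone above 25% was in Vhq52 in mouse 1485, with 1262 of 2012 reads (62.7%, 60.6 to 64.8), and its D stretch was also aligned to the flank, as was that of the Vh7183 clone of KO mouse 1464 with 278 of 749 reads (37.1%), whose letters also occur in the segment.

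Of the 10 CDR3 sequences found in more than 1 mouse, 9 were in 2 mice and 2 were in both genotypes. The one found in 3 mice joined IGHV2-2, IGHD2-4 and IGHJ4 in the base 1 frame and is shown because it spans both genotypes.
IGHV2-2, IGHD2-4, IGHJ4: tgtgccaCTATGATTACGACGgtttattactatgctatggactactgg

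It had 2 reads in KO mouse 1464, against 452 reads in WT mouse 1484 and 3 reads in WT mouse 1536. All 5 shared sequences of Vh7183 joined WT mice 1432 and 1484, with 4 to 134 reads each. Whether shared sequences arose separately or were carried between libraries was not tested.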

How the data were processed

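Genomic VDJ amplicons were sequenced by the authors. Their series table, in the layout of MiXCR named in the series title, gives clone counts (reads per clonotype, deposited without normalization) and other columns (alignments, positions and gene names). Its version, its settings and the genome build were not given in the sources used here. Of the 34 libraries in the table, 2 (22 entries, named for mice 1500 and 1534) matched no listed sample and were not used. The 908 entries used became 871 clonotypes after repeat libraries of a mouse were merged by CDR3, V and J.

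The deposited text of the D part starts 1 base upstream of its own positions in all 814 entries with a D, so positions and alignments were used. Trimming and frame, planned over all DSP2 clonotypes and from the deposited trimming columns, were read from alignments within the germline segment. Scores used 5 per match and -11 per mismatch.

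The mouse was the replicate. KO and WT were compared by two-sided exact permutation, and paired contrasts by exact sign flips, with 95% intervals by inversion and Benjamini-Hochberg adjustment over 40 (KO and WT), 12 (amplicons) and 9 (DFL16) tests. Mouse numbers in the titles name the animal, which pairs its amplicons. For shares over all amplicons, 6 KO and 5 WT mice allow no exact p below 0.00216. Means per mouse needed 3 DSP2 clonotypes. The tests were tested on simulated data. Members, lists and tests were chosen with earlier results of these data known. Named were every DSP2 gene and its ties, the D families, the J genes, the V genes with the most DSP2 clonotypes, the most-read DSP2 clone per amplicon and genotype, clones above 25% of a mouse's reads and CDR3s shared between mice. Python 3.11.15, numpy 2.4.6, pandas 2.3.3, scipy 1.17.1 and matplotlib 3.10.9 were used.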

Additional observations from a re-analysis of the deposited data

Results flagged for a closer look

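The DSP2 share of clonotypes in Vh558 was 0% in KO mouse 1534, far below the next KO mouse at 46.7%, and that mouse had 4 clonotypes with a D hit. Inserted D-J bases of DSP2 joins in Vhq52 averaged 6.2 in KO mouse 1500, against 2.33 in the next KO mouse, over 5 clonotypes. Both stood apart by Dixon's test, which was run on 41 groups and marks about 1 group in 20 by chance.

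The excess of IGHJ3 in DSP2 joins over joins of other D families was 26.7 points in KO mice and 4.63 points in WT mice (n = 5 each). The KO minus WT difference was 22.1 points (0.12 to 41.7; exact permutation p = 0.0476). With near-identical CDR3s merged it was 19.1 points (-6.32 to 42.6; exact p = 0.119).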

How the results depend on the processing

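Of 167 alternative values over 39 results, beside those leaving out a mouse, 144 kept direction and side of an unadjusted exact p of 0.05, 13 turned direction, 7 lost the threshold and 3 gained it. The cause was not tested. For KO minus WT over all amplicons, 1 DSP2 clonotype per mouse as the minimum gave 0.78 bases for D length and -5.94 points for the tyrosine-rich frame. At least 8 D bases gave 0.48 for D length and -0.073 for 5′ trimming. Weighting by reads gave -8.43 points for the frame, -0.12 inserted V-D bases and -15.7 points for IGHJ4 (exact p = 0.111). Merging near-identical CDR3s, chosen after seeing the data, gave -4.17 points for the frame, 0.031 bases for CDR3 length, -2.43 points for IGHD2-6 and 0.43 points for IGHD2-7. Without CDR3s held by 2 or more mice, CDR3 length differed by 0.70 bases.

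Without the mouse as replicate block, the DSP2 share of Vh558 minus Vh7183 was -2.25 points. D length was then 2.62 bases for Vh558 minus Vhq52 (exact permutation p = 0.003) and 1.93 for Vh7183 minus Vhq52 (exact permutation p = 0.0118). Paired within mice these were 2.43 bases (exact sign-flip p = 0.0625, n = 5) and 1.23 bases (exact sign-flip p = 0.156, n = 7). IGHJ4 was 29.8 points for Vh558 minus Vhq52 without the block (exact permutation p = 0.033) and 15.9 paired (exact sign-flip p = 0.188, n = 5). The p-values without the block treat amplicons of the same mouse as separate animals, so no difference is drawn from them. D-J bases of DSP2 minus DFL16 were 0.79 without the block (exact p = 0.0789) and 0.74 in IGHJ4 joins only. The DSP2 minus DFL16 difference in 5′ trimming turned to -0.36 with at least 8 D bases. For Vh558 minus Vh7183, CDR3 length was 2.30 in WT mice only and 2.47 merged, and IGHJ4 was 32.7 and 42.3 points; 3 WT mice cannot reach 0.05.

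Leaving out each mouse, KO minus WT ranged over -16.1 to 4.72 (share, Vh558), -8.01 to 3.83 (share, all), -0.71 to 0.31 (D length), 0.31 to 1.04 (5′ trimming), -0.90 to -0.48 (3′ trimming), -5.63 to 8.47 (frame), 0.25 to 1.01 (V-D), -1.22 to -0.11 (D-J), -1.36 to 0.46 (CDR3) and -34.4 to -20.5 (IGHJ4). Vh558 minus Vhq52 share ranged over -7.44 to 9.37, CDR3 over 1.97 to 3.03 (Vh558 minus Vh7183) and -1.37 to 0.019 (Vh7183 minus Vhq52), and IGHJ4 over 42.7 to 53.5 (Vh558 minus Vh7183). DSP2 minus DFL16 ranged over 10.1 to 21.4 (frame), 0.65 to 0.94 (D-J) and -0.78 to -0.43 (log2 reads). D length, 3′ trimming and CDR3 length against DFL16 kept an unadjusted exact p under 0.05 in 10 of 10 such sets. Samples with as few as 5 entries limit every mean.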
